A study of Mus musculus with 6 samples.

Results

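The genes of the SR and hnRNP splicing factor families were examined in C2C12 cells at differentiation day 4. C2C12 is a mouse myoblast line that fuses into myotubes when serum is withdrawn. The members were taken by name: every gene whose symbol starts with *Srsf* and a digit, or with *Hnrnp*, apart from 2 genes whose names hold "-ps". That gave 31 genes of the 55421 in the count table, 11 *Srsf* and 20 *Hnrnp* genes. The normal group (CUG5) carried a stably transfected GFP plasmid with 5 CTG repeats, and the DM1 group (CUG200) the same kind of plasmid with 200 CTG repeats. DM1 is myotonic dystrophy type 1, in which expanded CUG repeat RNA collects in the nucleus. Both groups went through selection with G418 and 4 days of differentiation, and each had 3 libraries of total RNA. Each group was 1 stably transfected line, so the repeat length and the line cannot be told apart, and the p-values below measure the spread between libraries of a line.

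SR proteins and hnRNPs are abundant nuclear RNA-binding proteins that decide, often in opposition, which exons are kept in a messenger RNA. SR proteins carry RNA recognition motifs and a tail rich in arginine and serine, which is phosphorylated by dedicated kinases, and classically they bind exonic enhancers and recruit the spliceosome. The hnRNPs coat nascent transcripts, and many of them bind silencers and block splice sites. Members of both families control their own amounts by splicing their transcripts to forms with premature stop codons, which nonsense-mediated decay removes. In muscle they act together with the MBNL and CELF proteins, the factors best known from DM1.

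The libraries held between 61707889 and 80957325 counts, and the members took between 0.524% and 0.589% of them. Mitochondrial genes took 8.90% to 13.5% of the counts. CUG200 replicate 3 (8.90%) and CUG5 replicate 1 (9.04%) stood apart from the other libraries, at 12.3% to 13.5%. Over the 19005 genes tested after low counts were filtered out, 15.9% differed between the groups at an adjusted p under 0.05 in edgeR's quasi-likelihood test, 8.73% lower and 7.13% higher in the DM1 group. At the study's cutoffs, which also ask for an absolute log2 fold change over 1, the share was 2.18%. Of 16 myotube markers 12 were lower in the DM1 group and 4 did not pass the test, and their summed level was 15852 to 18922 TPM in the normal group and 10489 to 12350 TPM in the DM1 group. All 4 muscle lineage markers tested (*Myod1*, *Myog*, *Mef2c*, and *Des*) were lower, with a summed level of 1427 to 1509 TPM against 828 to 1156 TPM. Of 10 markers of undifferentiated myoblasts and reserve cells 3 were lower and 2 higher, and the list summed to 394 to 429 TPM against 304 to 364 TPM. Of 14 markers of cycling cells 2 were lower and 1 was higher, with sums of 887 to 1039 TPM against 909 to 978 TPM. The 6 markers of blood, endothelial, epithelial, and neuronal cells summed to at most 0.648 TPM in any library, with *Ptprc*, *Epcam*, and *Rbfox3* at 0 counts throughout. In bulk RNA, fewer cells of a type and less RNA per cell cannot be told apart, and the part of the lower myotube content in the values below was not tested.

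Of the 31 members 30 passed the filter. *Srsf12* had 0 counts in all 6 libraries, which allows a level of up to 0.0371 to 0.0486 CPM (counts of a library scaled to a common total) by library, at 3 counts and for counting error only. The levels of the others spanned a wide range. On the TPM scale, which divides by transcript length and so allows genes to be compared, the most abundant hnRNP genes in the normal group were *Hnrnpa2b1* at 793 ± 46.7 TPM, *Hnrnpk* at 659 ± 205 TPM, and *Hnrnpa1* at 654 ± 48.5 TPM (SD, n = 3). *Hnrnpa2b1* and *Hnrnpa1* encode core proteins of the hnRNP particle, and *Hnrnpk* encodes a poly(C)-binding protein. *Hnrnpk* and *Hnrnpa1* did not differ beyond their spread. These 3 genes made up 20.3%, 16.9%, and 16.8% of the summed *Hnrnp* level. Among the SR genes *Srsf11* stood at 283 ± 26.2 TPM, *Srsf5* at 281 ± 71.1 TPM, and *Srsf2* at 154 ± 7.48 TPM, and the first 2 were again within each other's spread. The lowest levels among the detected members were those of *Hnrnpa0* at 19.9 ± 1.40 TPM and *Hnrnpul2* at 20.5 ± 2.62 TPM, with *Srsf1* at 22.2 ± 3.45 TPM and *Srsf9* at 23.7 ± 0.172 TPM the lowest SR genes.

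**Figure D1:**
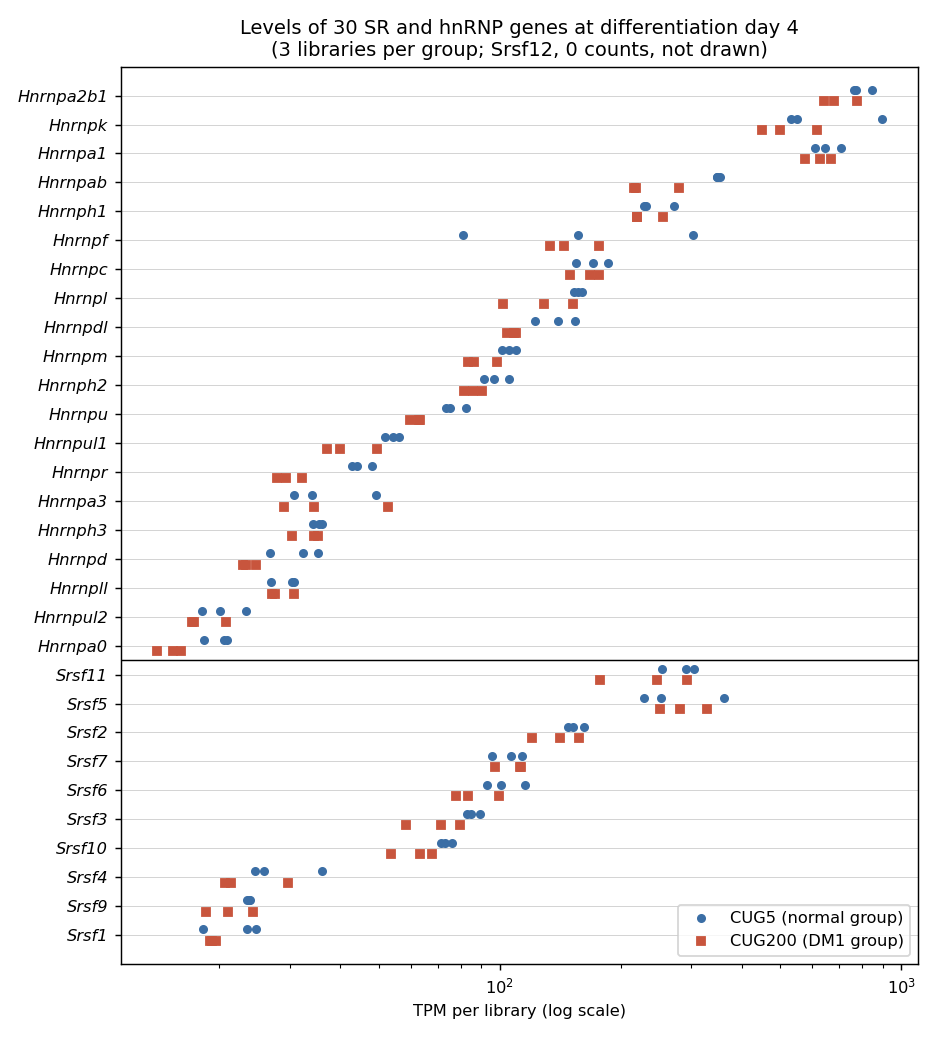
TPM of the 30 detected members in each library (log axis), CUG5 as circles and CUG200 as squares, ordered within each family by the mean of the CUG5 libraries. *Hnrnpa2b1*, *Hnrnpk*, and *Hnrnpa1* lie at the top, and *Hnrnpf* has the widest spread among the CUG5 libraries, from 80.8 to 302 TPM.

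The leading genes of each family were the same in both groups, though their order changed. Composition itself was not tested. In the DM1 group *Hnrnpa2b1*, *Hnrnpa1*, and *Hnrnpk* again led the hnRNP genes, with 21.0%, 18.7%, and 15.6% of the summed level, and *Srsf5*, *Srsf11*, and *Srsf2* led the SR genes with 27.2%, 22.6%, and 13.2%. The summed level of the hnRNP genes was 4119, 4026, and 3551 TPM in the normal libraries and 3337, 3269, and 3391 TPM in the DM1 libraries. The groups did not overlap, and the mean ratio was 0.855. The summed level of the SR genes was 1296, 1129, and 1055 TPM against 972, 1020, and 1174 TPM, a ratio of 0.909, and here the groups overlapped. In both families the highest sum of each group was in its library with the smallest mitochondrial share. On the TPM scale the fitted fold changes of all genes sat 0.12 lower on the log2 scale than on the count scale (median shift of -0.12), so part of each ratio is common to the whole table.

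Between the groups, 1 of the 30 members passed the test. *Hnrnpab* fell in the DM1 group. No member rose, and none passed both cutoffs of the study. The 1 member called lower is 3.33% of the 30 tested, against 8.73% over all genes and 15.9% over the 8182 genes with a normal-group level of at least that of the lowest tested member. At an unadjusted p under 0.05, 10 members were lower and 0 higher. The 10 are 33.3% of the members, against 30.7% of all genes at that p in either direction, 16.0% lower and 14.7% higher. No share at that p was computed for the genes at the members' level. The number also hung on single libraries. In either direction it was 3 members without CUG5 replicate 3, 5 without CUG200 replicate 2, and 11 without CUG200 replicate 1. The share of all genes at that p was not computed with libraries left out. At an adjusted p under 0.05 in edgeR the share of all genes called lower moved too. It was 2.45%, 2.90%, and 7.00% in that order, against 8.73% with every library. DESeq2 called 4 members lower and 0 higher, beside 6.47% lower and 5.78% higher of the 30211 genes it was run on. Those include genes too low for the edgeR filter, and no DESeq2 share was computed for the genes at the members' level. In the normalised counts the libraries of the groups did not overlap for 12 members, 11 of them lower and 1 higher in the DM1 group. The 11 lower members are 36.7% of those tested, against a background of 19.3% over all genes and 30.7% over the genes at the members' level. The 1 higher member is 3.33%, against 17.9%. The median log2 fold change was -0.12 for the SR genes and -0.07 for the hnRNP genes, beside 0.02 over all genes and -0.06 over the genes at the members' level.

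**Figure D2:**
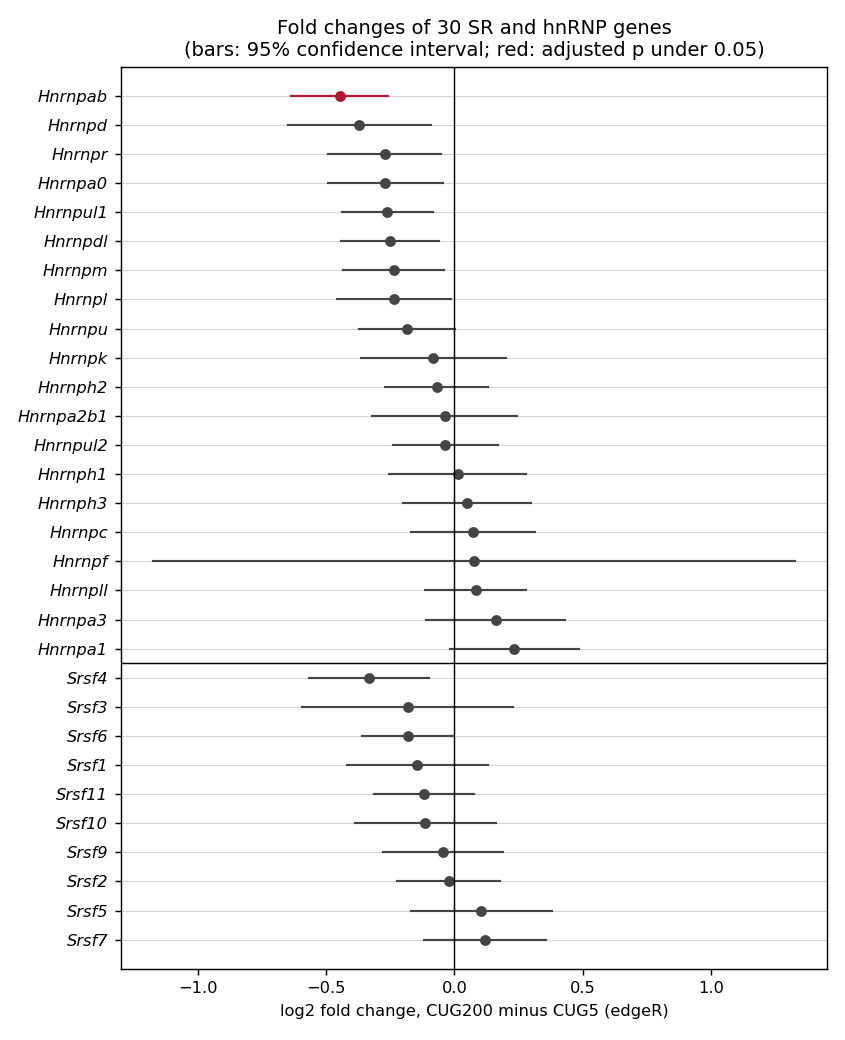
Log2 fold change (CUG200 minus CUG5) of each tested member with its 95% confidence interval from edgeR, hnRNP genes above the line and SR genes below it. *Hnrnpab* at -0.45 is the only member with an adjusted p under 0.05, and the interval of *Hnrnpf* is the widest, from -1.18 to 1.33.

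The intervals bound the fitted changes on the count scale, for the spread between libraries only. Other processing could move a member outside its interval. *Hnrnpr* had an interval of -0.494 to -0.0504 and reached -0.592 over the alternatives that keep every library. *Hnrnpa1* had an interval of -0.0185 to 0.484 and reached -0.0679. For 29 of the 30 members the 95% confidence interval of the log2 fold change lay within 1 in either direction, *Hnrnpf* being the exception, and for 25 it lay within 0.5. On simulated data of the same size the test recovered 2 of 50 genes changed by 0.25, 9 of 50 changed by 0.5, 39 of 50 changed by 0.75, and 47 of 50 changed by 1 on the log2 scale, with 13 false calls. DESeq2 made 53 false calls on such data. In the simulation only 50 genes of each size were changed among 18440, whereas 15.9% of all genes were called in the data. The adjustment is stricter where fewer genes change. The changed genes were also drawn from all genes above the level of the lowest member, with their own spreads. Recovery for the members themselves was therefore not measured. Most members differed by less than 0.25, a size that the test rarely recovered in the simulation.

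*Hnrnpab* (ENSMUSG00000020358) lies at chr11:51600100-51606847 on the minus strand of GRCm38. It encodes an A/B-type hnRNP, also known as CArG-binding factor A, which binds RNA and single-stranded DNA. Its normalised read counts were 357, 379, and 389.5 CPM in the normal libraries and 277, 260.1, and 288 CPM in the DM1 libraries. All 3 DM1 libraries lay below all 3 normal libraries, by more than the spread within either group. The means were 375 ± 16.6 and 275 ± 14.3 CPM (SD, n = 3), a log2 fold change of -0.45 (SE 0.083, 95% confidence interval -0.64 to -0.26, adjusted p = 0.0104 in edgeR with Benjamini-Hochberg adjustment). The call was lost without CUG5 replicate 3 (edgeR, adjusted p = 0.0634) and without CUG200 replicate 2 (edgeR, adjusted p = 0.0568), and the fold change stayed between -0.48 and -0.41 with any 1 library left out. On the TPM scale the levels were 353, 348, and 347 against 219, 215, and 279.8, and *Hnrnpab* went from 8.95% to 7.14% of the summed hnRNP level. The gene has no near-identical copy in the annotation. *Phykpl*, a gene on the opposite strand, overlaps it, and held 966 to 1326 counts beside the 18532 to 30026 counts of *Hnrnpab*.

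The bases upstream of the RefSeq start of *Hnrnpab* are shown because it was the member called, beside those of *Hnrnpa1*, the member whose libraries separated in the other direction in CPM, though not in TPM. They are given 5′ to 3′ on the gene's strand, with matches in capitals. The motifs searched on either strand were the CCAAT box with the letters CCAAT, the E-box bound by myogenic factors with the letters CANNTG, the TATA box with the letters TATAAA, the core of the NRF1 motif with the letters GCATGCGC, and the core of the ETS motif with the letters CCGGAAG. RefSeq, on GRCm38.p6, places them at chr11:51606882-51607131 on the minus strand and at chr15:103240147-103240396 on the plus strand.
*Hnrnpab*: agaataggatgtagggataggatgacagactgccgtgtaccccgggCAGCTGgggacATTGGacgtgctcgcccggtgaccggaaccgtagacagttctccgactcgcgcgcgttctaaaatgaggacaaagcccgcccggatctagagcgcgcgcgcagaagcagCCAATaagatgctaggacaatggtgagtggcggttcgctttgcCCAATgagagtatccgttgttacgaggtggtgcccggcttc
*Hnrnpa1*: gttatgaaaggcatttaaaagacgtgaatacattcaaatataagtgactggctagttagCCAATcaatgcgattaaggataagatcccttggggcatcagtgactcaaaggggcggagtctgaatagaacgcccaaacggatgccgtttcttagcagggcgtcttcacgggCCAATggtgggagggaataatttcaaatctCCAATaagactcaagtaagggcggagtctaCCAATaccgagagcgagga

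Both windows hold several CCAAT matches, at -193, -84, and -41 from the start in *Hnrnpab* and at -191, -79, -49, and -19 in *Hnrnpa1*. The *Hnrnpab* window also holds an E-box match at -204. RefSeq gave 41 windows of 250 bases for 29 of the 31 members. CCAAT was found in 20 of these 41 (48.8%) and in 33.8% of all 32851 windows of that length. The E-box letters were found in 23 (56.1%, against 66.2%), the ETS core in 9 (22.0%, against 6.91%), the NRF1 core in 3 (7.32%, against 2.26%), and the TATA box in 3 (7.32%, against 12.4%). The members' windows had a median GC content of 68.0%, against 52.4% over all windows, and windows of 1 gene can overlap. A match describes the letters only.

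In the rest of the A/B subfamily no member passed the test. *Hnrnpa1* had 774, 778, and 750.4 CPM in the normal libraries and 1051, 855, and 800.3 CPM in the DM1 libraries. Its groups did not overlap, but CUG200 replicate 1 stood far above the other 2 DM1 libraries, and the log2 fold change of 0.23 (SE 0.11) had an adjusted p of 0.194 in edgeR. On the TPM scale the sign turned, to -0.07 with overlapping groups (limma adjusted p = 0.759). *Hnrnpa2b1* had 737, 712, and 733 CPM against 854, 656, and 614 CPM. The highest and the lowest values were both in the DM1 group, and the log2 fold change was -0.04 (SE 0.12, adjusted p = 0.876 in edgeR). *Hnrnpa3* had 40.6, 40.8, and 43.5 CPM against 54.0, 38.9, and 46.8 CPM, a log2 fold change of 0.16 (SE 0.12, adjusted p = 0.414 in edgeR) with overlapping groups. *Hnrnpa0*, a gene without introns, was at 30.5 to 33.5 CPM in the normal group and 24.9 to 29.1 CPM in the DM1 group, with no overlap and an adjusted p of 0.101.

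The next lowest p-values among the lower members belonged to *Hnrnpul1* and *Srsf4*. *Hnrnpul1* encodes a relative of hnRNP U, a nuclear scaffold protein. It had 107, 111, and 114 CPM in the normal libraries and 89.3, 90.2, and 97.3 CPM in the DM1 libraries. Both groups were tight and did not overlap, and the log2 fold change was -0.26 (SE 0.078, adjusted p = 0.0535 in edgeR, 0.0449 in DESeq2). *Srsf4*, the SR protein also called SRp75, had 41.6, 37.9, and 40.2 CPM against 29.3, 29.8, and 35.9 CPM. CUG200 replicate 3 lay closest to the normal libraries, without reaching them in CPM. The log2 fold change was -0.33 (SE 0.10, adjusted p = 0.0610 in edgeR, 0.0446 in DESeq2). A gene known by its clone name on the same strand, A930004J17Rik, overlaps *Srsf4* with 986 to 1655 counts beside 2124 to 3496 counts, and the sum of the genes passed the test (log2 fold change -0.34, edgeR adjusted p = 0.0391). On the TPM scale *Srsf4* had 36.1, 24.6, and 25.9 against 20.7, 21.5, and 29.8, where CUG200 replicate 3 reached the normal libraries, and its log2 fold change was -0.26 (limma adjusted p = 0.439).

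**Figure D3:**
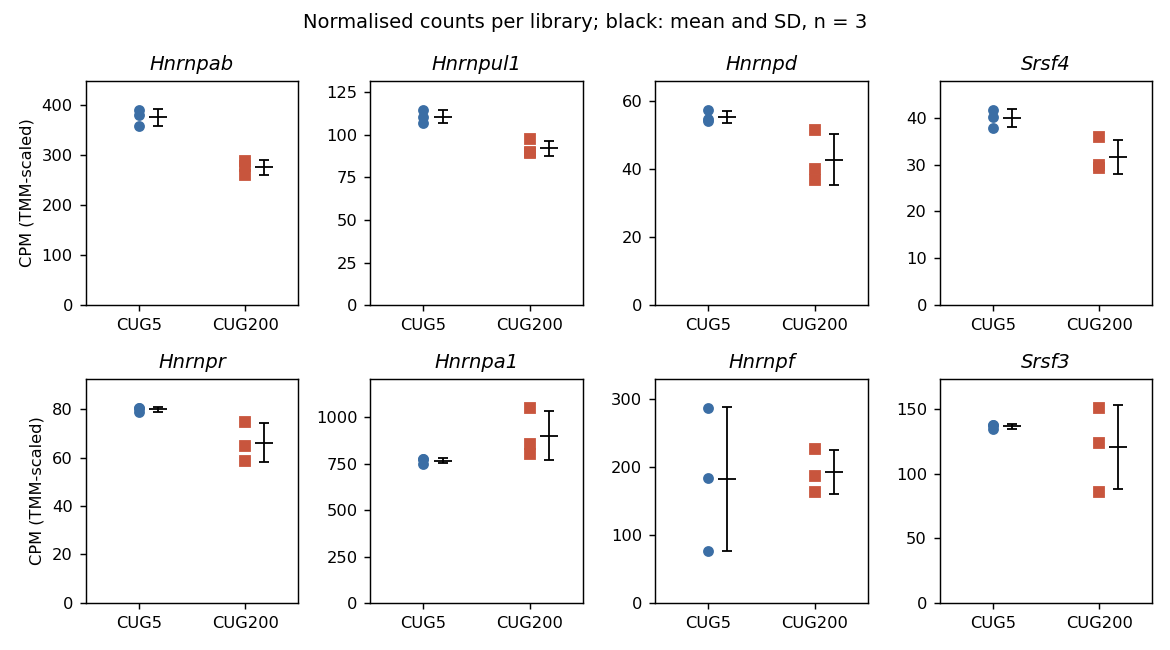
TMM-scaled CPM of 8 members in each library, CUG5 as circles and CUG200 as squares, with the mean and SD of 3 libraries in black beside the points. The groups separate in the upper row (*Hnrnpab*, *Hnrnpul1*, *Hnrnpd*, *Srsf4*) and for *Hnrnpr* and *Hnrnpa1*, and overlap for *Hnrnpf* and *Srsf3*.

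Both D-type genes, whose proteins bind AU-rich RNA and are best known from messenger RNA decay, were lower in every DM1 library without passing the test. *Hnrnpd* (AUF1) ranged from 54.1 to 57.3 CPM in the normal group and from 36.9 to 51.3 CPM in the DM1 group (log2 fold change -0.37, adjusted p = 0.0745 in edgeR, 0.0445 in DESeq2). *Hnrnpdl*, which lies near *Hnrnpd* on chromosome 5, ranged from 167 to 182 CPM and from 140.0 to 158 CPM (-0.25, adjusted p = 0.0764 in edgeR).

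The same held for 4 single genes of the R, M, L, and U subfamilies. *Hnrnpr*, whose protein is a close relative of SYNCRIP, was at 78.8 to 80.5 CPM and 58.8 to 74.8 CPM (adjusted p = 0.0946 in edgeR). On the TPM scale its log2 fold change was -0.58 and passed the test (limma adjusted p = 0.0278). *Hnrnpm* was at 148 to 157 CPM and 119 to 139.8 CPM (adjusted p = 0.102 in edgeR). *March2* overlaps *Hnrnpm* on the same strand with 3177 to 4651 counts, and the sum of the 2 genes had a log2 fold change of -0.11 (edgeR adjusted p = 0.407) in place of -0.24. *Hnrnpl*, a factor that binds CA-rich repeats, was at 146 to 165 CPM and 120.3 to 145 CPM (adjusted p = 0.142 in edgeR). *Hnrnpu* was at 221 to 239.7 CPM and 189 to 208 CPM (adjusted p = 0.168 in edgeR). In all 4 the DM1 libraries lay below the normal libraries.

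The remaining hnRNP genes had overlapping groups in CPM. In TPM they overlapped too, except for *Hnrnph2*, at 91.5 to 106 in the normal group and 81.6 to 90.2 in the DM1 group. The shift of all genes on the TPM scale, given above, applies to *Hnrnph2* too. *Hnrnpk* had 479, 620.4, and 499 CPM in the normal libraries and 525, 542, and 444 CPM in the DM1 libraries. CUG5 replicate 2 was the highest, and the log2 fold change was -0.08 (SE 0.12, adjusted p = 0.716 in edgeR). The F/H genes encode proteins that bind G-rich RNA, and *Hnrnph1*, *Hnrnph2*, and *Hnrnph3* had log2 fold changes of 0.01, -0.07, and 0.05. *Hnrnpc*, a classical component of the hnRNP core, was at 0.07, *Hnrnpll*, a homologue of *Hnrnpl*, at 0.08, and *Hnrnpul2* at -0.04. The adjusted p-values of these 6 genes in edgeR lay between 0.578 and 0.961.

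*Hnrnpf* varied most of all members. Its counts were 24076, 11274, and 5314 in the normal libraries and 13838, 16152, and 10849 in the DM1 libraries, or 286, 184, and 76.1 CPM against 186, 227, and 163 CPM. The normal libraries thus held both the highest and the lowest value, and the log2 fold change of 0.08 had an SE of 0.49 (adjusted p = 0.942 in edgeR). With single libraries left out it ranged from -0.28 to 0.56.

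Among the SR genes none passed the test in edgeR. *Srsf5*, the SR protein also called SRp40, had 294, 247, and 222 CPM in the normal libraries and 302, 252, and 268 CPM in the DM1 libraries (log2 fold change 0.11, SE 0.12, adjusted p = 0.616 in edgeR). *Srsf11* had 241, 262, and 253 CPM against 214, 241, and 241 CPM (-0.12, SE 0.086, adjusted p = 0.400 in edgeR). *Srsf2*, known as SC35 and as a marker of nuclear speckles, had 144, 166, and 154 CPM against 143, 159.7, and 153 CPM (-0.02, SE 0.088, adjusted p = 0.901 in edgeR). In these 3 genes the groups overlapped. *Srsf7*, the SR gene with the smallest p-value among those above 0, had 74.3, 78.3, and 69.7 CPM against 92.4, 76.6, and 72.7 CPM (0.12, SE 0.11, adjusted p = 0.495 in edgeR), and its highest value came from CUG200 replicate 1.

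*Srsf6*, or SRp55, was the SR gene beside *Srsf4* whose groups did not overlap in CPM, at 185 to 202 CPM in the normal group and 169 to 175 CPM in the DM1 group (adjusted p = 0.157 in edgeR). In TPM its groups overlapped, at 93.1 to 115 against 77.9 to 99.4, as those of *Srsf4* did. *Srsf3*, the smallest SR protein and a factor in export and in the splicing of other SR genes, had 138, 135, and 138 CPM against 151, 124, and 86.3 CPM. In CPM the normal libraries agreed closely, and the DM1 libraries spread on both sides of them, with the low value in CUG200 replicate 3 (log2 fold change -0.18, SE 0.18). In TPM all 3 DM1 libraries of *Srsf3* lay below the normal ones, at 79.7, 71.4, and 58.3 against 89.5, 84.8, and 82.9. *Srsf1*, the founding SR protein SF2/ASF, and *Srsf10*, an atypical member that represses splicing when dephosphorylated, were also lowest in that library, at 26.9 and 70.9 CPM against 34.7 to 37.1 and 93.3 to 97.8 CPM in the other 5 libraries. In TPM *Srsf10* also separated, at 71.3 to 76.1 in the normal group and 53.5 to 67.7 in the DM1 group, while *Srsf1* overlapped. On the TPM scale the fold changes of all genes sat lower, with a median shift of -0.12 on the log2 scale. The share of all genes whose groups separated in TPM was not computed. *Srsf9* was at 15.4 to 17.4 CPM in all libraries.

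The DM1 libraries differed among themselves across the families. In CUG200 replicate 1, 22 of the 30 members were above their group mean, with a median of 0.11 on the log2 scale. In CUG200 replicates 2 and 3, 19 and 18 members were below it, with medians of -0.04 and -0.08. In the normal libraries the medians lay between 0.006 and 0.013. With CUG200 replicate 1 left out edgeR called 3 members lower, beside 7.00% of all genes, and with CUG200 replicate 3 left out also 3, beside 10.7%. With CUG200 replicate 2 left out it called 0 members lower, beside 2.90% of all genes, and with CUG5 replicate 3 left out also 0, beside 2.45%. With either of the others left out it called 1, beside 3.40% and 3.90%.

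Several members share near-identical sequence with other annotated genes. Such copies were searched with the longest coding sequence of each member (at least 90% identity over at least 50% of it). *Hnrnpa3* had 34 copies, 29 of them with counts. Those copies held 89.5% to 92.0% of the combined counts, so the gene itself had 2507 to 4012 counts beside 26032 to 44875 on the copies. *Hnrnpf* had 6 copies with 31.6% to 63.4% of the combined counts, *Hnrnpk* 2 with 10.8% to 14.3%, *Hnrnpa1* 11 with 6.83% to 8.13%, and *Srsf5* 1 with 5.50% to 7.40%. In all other members the copies held at most 3.67%. The counting can split reads between such genes, so the levels of *Hnrnpa3* and *Hnrnpf* are uncertain. With the copies added, *Hnrnpa3* was at 490.5, 465, and 480.2 CPM in the normal libraries and 658, 484, and 446 CPM in the DM1 libraries, and no member's call changed. For *Hnrnpf* the copies were steady, at 125 to 132 CPM in the normal group and 109.9 to 128 CPM in the DM1 group, while the counts on the gene itself varied.

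**Figure D4:**
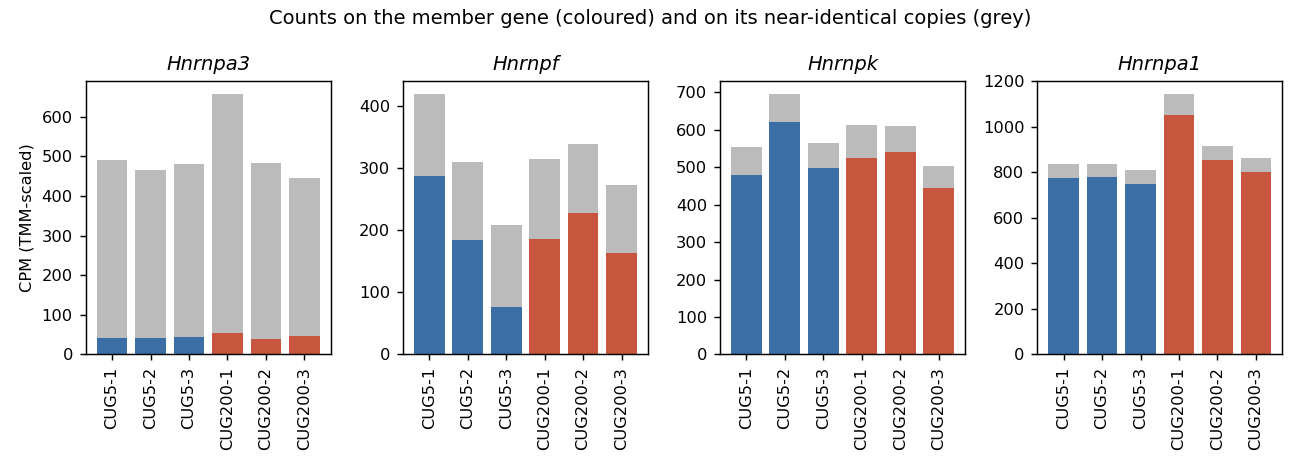
TMM-scaled CPM on 4 members (coloured, CUG5 left and CUG200 right) and on their near-identical copies (grey, stacked) in each library. The copies take 89.5% to 92.0% of each *Hnrnpa3* bar, while the *Hnrnpf* bars differ in the part on the gene itself.

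The deposited values also hold a trace of which transcripts were counted. Counts scale with the bases covered and FPKM with molecules, so their ratio gives each gene's mean transcript length in a library, weighted by abundance. For genes with 1 annotated transcript the ratio fell within 1% of the annotated length in 98.3% to 98.7% of cases by library, and single-transcript *Hnrnpa0* gave 2678 to 2679 bases in every library where the annotation has 2678. Counts and FPKM come from the same estimates, so this checks the arithmetic only. It does not check the lengths of genes with several transcripts. The members have 282 annotated transcripts, with a median of 7 per gene. Transcripts annotated as targets of nonsense-mediated decay occur in 19 members (35 transcripts) and retained-intron transcripts in 22 (75 transcripts). The measure was chosen after the values had been seen.

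Among 10025 genes tested for this length, 1 gene (0.00998%) passed an adjusted p under 0.05 in limma, and 0 of the 29 members did. On simulated lengths the test recovered 22 of 100 genes changed by 0.1 and 44 of 100 changed by 0.2 on the log2 scale. It made 9 false calls there, so many shifts of these sizes can be missed. At an unadjusted p under 0.05 there were 4 members (767 genes in all, 7.65%), and *Hnrnpa1* came closest. Its mean transcript length was 1956, 1981, and 1980 bases in the normal libraries and 2218, 2229, and 2192 bases in the DM1 libraries. The gap between the groups was far wider than the spread within them, a log2 difference of 0.17 (SE 0.0088, adjusted p = 0.0513 in limma). The adjusted p was 0.0364 when only genes with at least 1000 counts in every library were tested, and between 0.153 and 0.209 with any 1 library left out.

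Of the 5 annotated transcripts of *Hnrnpa1* only Hnrnpa1-204, at 3118 bases, is longer than 1918 bases. It carries 13 exons, is annotated as a target of nonsense-mediated decay, and shares its coding length of 1119 bases with Hnrnpa1-201. If no transcript outside the annotation is present, a mean above 1918 bases requires a share of Hnrnpa1-204 of at least 3.17%, 5.28%, and 5.16% in the normal libraries and 25.0%, 25.9%, and 22.8% in the DM1 libraries. These shares are a model estimate by the assembler and not a count of reads over junctions. The *Hnrnpa1* levels separated in counts but not in TPM, where they were 707, 645, and 611 in the normal libraries and 668, 577, and 627 in the DM1 libraries.

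Apart from *Hnrnpa1*, the length separated between the groups in 5 members. *Hnrnpr* had 2999, 2991, and 2973 bases in the normal libraries and 3274, 3500, and 3447 bases in the DM1 libraries (log2 difference 0.19, SE 0.028, adjusted p = 0.324 in limma). Its longest annotated transcript, Hnrnpr-207, has 21452 bases. *Hnrnpf* was at 1518 to 1921 bases in the normal group and 1935 to 1967 bases in the DM1 group. *Hnrnpm* was shorter, at 2364 to 2502 against 2144 to 2293 bases, as were *Hnrnpl*, at 1692 to 1706 against 1625 to 1664 bases, and *Srsf9*, at 1172 to 1183 against 1168 to 1170 bases. The 3 longer members are 10.3% of those tested against 4.12% of all genes, and the 3 shorter ones 10.3% against 9.32%. *Hnrnpab* gave 1794 to 1811 bases in the normal group and 1771 to 1818 bases in the DM1 group, so its lower counts came with no shift in length beyond the spread.

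**Figure D5:**
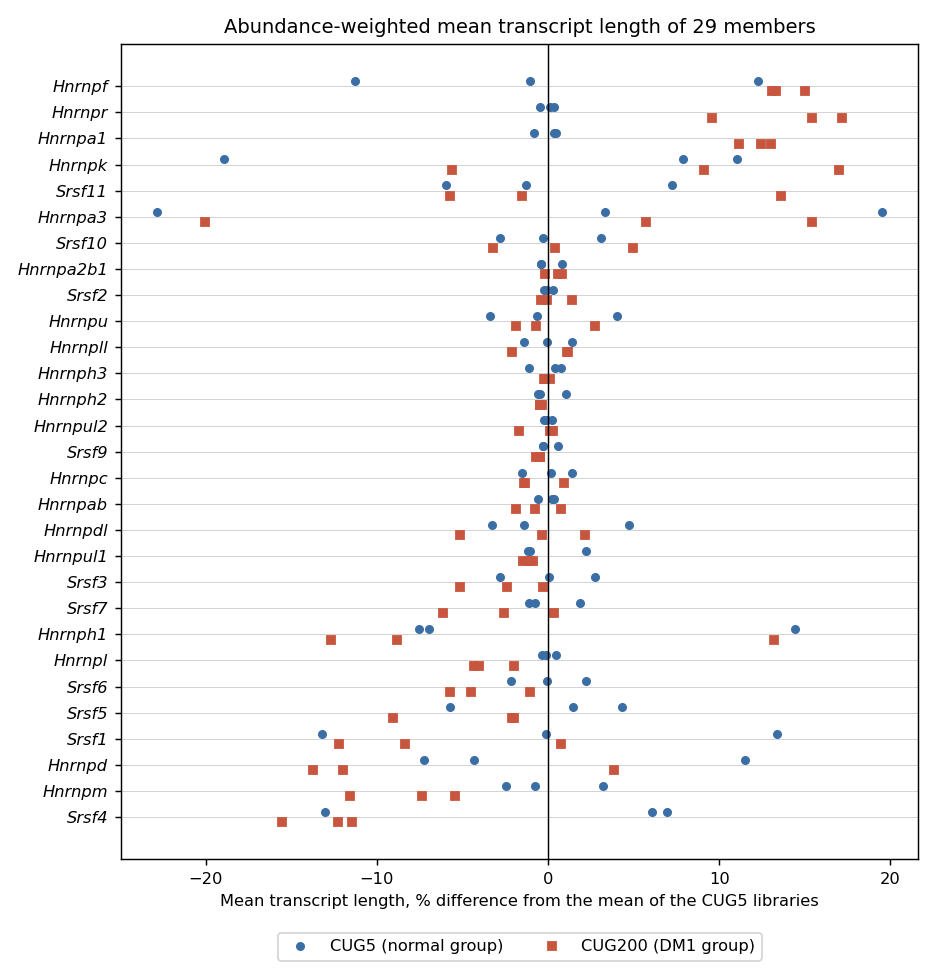
Mean transcript length of 29 members in each library, as the percent difference from the mean of the CUG5 libraries, CUG5 as circles and CUG200 as squares. *Hnrnpa1* and *Hnrnpr* show 3 CUG200 libraries well to the right of tightly grouped CUG5 libraries, and genes such as *Hnrnpa3* scatter widely in both groups.

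Other genes of the splicing machinery were read from lists of known function. Of 32 tested hnRNP and SR-type genes that go by other names 4 fell and 28 did not pass the test. They were *Sfpq*, a paraspeckle protein that pairs with NONO, from 171 ± 9.48 to 126 ± 4.91 CPM (log2 fold change -0.44, edgeR adjusted p = 0.0103), *Elavl1*, or HuR, which stabilises AU-rich messenger RNA (-0.60, adjusted p = 0.0252), *Pcbp1*, a poly(C)-binding relative of hnRNP K (-0.32, adjusted p = 0.0329), and *Ptbp1*, the polypyrimidine tract binding protein that is also called hnRNP I (-0.29, adjusted p = 0.0347). The list had a median log2 fold change of -0.02.

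Of the 17 genes for kinases, phosphatases, methylation, and nuclear import of these proteins 5 fell and 12 did not pass the test, with a median of -0.22. *Tnpo3*, the importin of SR proteins, went from 113 ± 7.59 to 83.0 ± 4.81 CPM (log2 fold change -0.45, edgeR adjusted p = 0.0118). *Prmt1* and *Prmt5*, which methylate arginines in hnRNPs and Sm proteins, were at -0.41 (adjusted p = 0.0138) and -0.43 (adjusted p = 0.0142), and the kinase gene *Dyrk1a* at -0.65 (adjusted p = 0.0141). The fifth, outside the naming rule and chosen after its values were seen, was *Srpk3*, the SR protein kinase typical of muscle, from 29.8 ± 1.81 to 21.8 ± 1.73 CPM (-0.45, edgeR adjusted p = 0.0208). Myotube markers were lower in the same libraries, as given above.

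Of 46 core spliceosome genes 8 fell and 4 rose, with a median of -0.04. The 4 lower genes with the smallest p-values were *Sf3b3*, *Sf3b4*, and *Snrnp200*, with *Eftud2*, between -0.51 and -0.46 on the log2 scale (edgeR adjusted p from 0.00922 to 0.0146). They belong to the branch-point complex SF3B and to the U5 particle. The 4 higher ones were *Snrpd2* and *Snrpg*, which encode Sm ring proteins, *Prpf40b*, and *Sf3b6*, all between 0.47 and 0.49 (edgeR adjusted p from 0.0137 to 0.0395).

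Of 19 tested regulators known from CUG repeats or muscle splicing 5 fell and 14 did not pass the test, with a median of -0.25. *Qk* went from 334 ± 9.30 to 232 ± 6.53 CPM (log2 fold change -0.52, edgeR adjusted p = 0.00447), *Celf1* from 109 ± 0.979 to 79.2 ± 3.23 CPM (-0.47, adjusted p = 0.00612), *Rbm24* was at -0.69 (adjusted p = 0.0125), and *Ddx6* at -0.36 (adjusted p = 0.0252). The other one, also chosen after its values were seen, was *Rbfox1*, at -0.88 (adjusted p = 0.0282). Of 15 genes of nonsense-mediated decay 3 fell and 12 did not pass the test. Among the 3 were *Smg8* at -0.53 (edgeR adjusted p = 0.0118) and *Eif4a3* at -0.35 (edgeR adjusted p = 0.0255), and the list had a median of -0.18. Against the background of 8.73% lower and 7.13% higher over all genes, or 15.9% lower and 8.53% higher over the genes at the members' level, these counts describe the lists and carry no test of their own.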

How the data were processed

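The authors trimmed reads with Trim Galore, aligned them to GRCm38 with HISAT2, and quantified genes with StringTie. They deposited counts per gene, not normalized (75 covered bases per count), and, per library, coverage, FPKM, and TPM values. Read length and strand setting are not given in the sources used here. Members and gene lists were chosen with earlier results of these data known. Counts were filtered with filterByExpr (minimum 10), scaled by TMM (factors 0.940 to 1.05), and compared with edgeR 4.0.16 (quasi-likelihood, robust, no covariate), with Benjamini-Hochberg adjustment over 19005 genes. All members passing an adjusted p under 0.05 were given by library, with up to 3 members of smallest p per direction and the 3 most abundant per family. Of other lists, up to 4 called genes per direction were given. Mean transcript length was 75 × count divided by rescaled FPKM, compared with limma 3.58.1 for genes with at least 200 counts in every library and at least 2 transcripts in GENCODE M21, in which all 31 members had the same span. Copies were searched with BLAST+ 2.17.0. DESeq2 1.42.0 and limma on log2(TPM + 1) were alternatives. The scripts were tested on simulated data. The transgene was not analysed here, and 2 items are not reported here.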

Additional observations from a re-analysis of the deposited data

How the results depend on the processing

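The count of lower members was 4 with DESeq2 (6.47% of all genes lower) and 2 with library totals alone (7.64%), with counts divided by 4 (11.4%), with limma on log2(TPM + 1) (3.54%) or log2(TPM + 0.1) (3.66%), and after summing same-strand overlapping genes (8.74%), and 0 to 3 with single libraries left out. No alternative called a member higher or past both cutoffs. *Hnrnpab* was called in all 13 settings that keep every library. Over all genes, limma called 1025 on log2(TPM + 1) and 1050 on log2(TPM + 0.1), and leaving out single libraries gave 1028 to 3789. The median of the hnRNP genes was -0.21 with log2(TPM + 1) and -0.22 with log2(TPM + 0.1), and ranged from -0.15 to -0.039 with single libraries left out. The SR median is not given for these settings, but single SR genes moved too. Over the settings that keep every library, *Srsf3* ranged from -0.307 to -0.162, *Srsf11* from -0.272 to -0.0989, and *Srsf10* from -0.262 to -0.0924. *Srsf5* (0.0506 to 0.125) and *Srsf7* (0.0297 to 0.140) stayed positive. Without mitochondrial genes the ratios of summed TPM were 0.900 for SR and 0.847 for hnRNP genes, and after division by the TMM factor 0.924 and 0.871.

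Signs turned in members that had not passed the test. With log2(TPM + 1) and log2(TPM + 0.1), in that order, *Hnrnpa1* was at -0.0678 and -0.0679, *Hnrnpc* at -0.0513 and -0.0516, *Hnrnpf* at -0.0580 and -0.0572, *Hnrnph1* at -0.0727 and -0.0730, *Hnrnph3* at -0.0798 and -0.0819, and *Hnrnpll* at -0.0411 and -0.0423. *Hnrnph1* was at -0.0142 with library totals alone, and *Hnrnpf* at -0.0151 with its copies added, an alternative chosen after seeing the data. With single libraries left out, *Hnrnpa2b1* ranged from -0.18 to 0.053, *Hnrnpc* from -0.032 to 0.14, *Hnrnpf* from -0.28 to 0.56, *Hnrnph1* from -0.072 to 0.10, *Hnrnph3* from -0.048 to 0.10, *Hnrnpk* from -0.15 to 0.040, *Hnrnpul2* from -0.10 to 0.015, *Srsf10* from -0.18 to 0.017, *Srsf2* from -0.072 to 0.033, *Srsf3* from -0.36 to 0.0077, and *Srsf9* from -0.097 to 0.00069. The cause of these shifts was not tested.

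Replicate numbers did not pair the libraries (correlations of same-numbered deviations 0.067, 0.022, and 0.026). With the replicate block edgeR called 1 member lower and 2823 genes in all. For mean transcript length 1 member, *Hnrnpa1*, was called with at least 1000 counts in every library and 1 without robust estimation, and 0 with the block. All length results were chosen after seeing the data. On simulated data edgeR recovered 9 of 50 genes changed by 0.5 and 39 of 50 changed by 0.75 on the log2 scale. Fewer genes were changed there than were called in the data, so detection for the members was not measured. Other numbers of libraries were not simulated.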
